A study of Mus musculus with 12 samples.

Results

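The genes described here encode the enzymes, carriers and regulators of fatty acid oxidation and ketone body formation, and they were read in the liver of mice exposed to secondhand smoke (SHS). The list held 40 genes and was chosen with earlier results of these data known. All probe sets whose symbol in the array's annotation was a member were used, whatever their values. There were 71 such probe sets, of which 68 named a member alone and 3 named several genes. Of the 40 genes, 39 had a named probe set and 38 had a probe set that named them alone, out of 18193 genes on the array read in the same way. Acsl1, an acyl-CoA synthetase, was not analysed here. Cpt1b, the muscle form of the outer carnitine palmitoyltransferase, shared its probe set (1418328_at) with Chkb and Gm44502. For each gene the values are those of its brightest single-gene probe set, and other probe sets are given for some genes.

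Male C57BL/6 mice, young adults at the start and kept on a standard diet, inhaled SHS with the whole body for 4 months. Liver RNA was measured on 12 Affymetrix mouse genome arrays, each with the RNA of a single mouse. The control group breathed filtered air in a sham exposure (replicates 1 to 4), SHS4m mice were killed at the end of exposure (replicates 66 to 69), and SHS4m+1m recovery mice, called recovery mice below, spent 1 further month in clean air (replicates 70 to 73). The controls were age-matched, with sham animals for both times, but the labels do not say which time the 4 control arrays stand for, so a difference of 1 month in age between controls and either exposed group cannot be told apart from exposure. The smoke was a mixture that no single constituent stands for, and the animals were of 1 sex and 1 strain. The comparisons ask whether hepatic transcripts of the pathway differed at the end of exposure, and whether they differed after 1 month without smoke.

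Long-chain fatty acids are activated to acyl-CoA esters, carried into mitochondria as carnitine esters, and shortened by repeated rounds of dehydrogenation, hydration, dehydrogenation and thiolysis. Peroxisomes run a similar cycle on very long-chain, branched and dicarboxylic substrates, and Acox2 oxidises the branched side chains of bile acid precursors. In fasting, the liver turns the acetyl-CoA that results into ketone bodies, and the nuclear receptor PPARalpha, encoded by Ppara, raises the transcripts of many of these enzymes.

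All signals are log2 values of the deposited intensities after values below 32 were raised to 32, so 5 is the lowest value possible. Differences are log2 differences of group means of 4 arrays from limma, and a gene is called where the p adjusted over all 45037 probe sets was under 0.05. The brackets give the 95% interval from the same model. Values on single arrays are listed in the order of replicate numbers. Probe sets differ in how brightly they bind, so no gene's signal is set against another gene's. The comparisons of SHS4m and of recovery mice with controls share the 4 control arrays. In whole liver, fewer cells of a type and less RNA per cell cannot be told apart.

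The arrays were alike in their share of values below 32 (29.9% to 33.5%) and no 2 arrays held identical values. The ratio of 3' to 5' actin probe sets, which rises as RNA degrades, was 8.82 for recovery replicate 72 and 3.24 to 4.64 for the other 11 arrays. The labelled tissue was borne out by hepatocyte markers, whose summed signal over 8 of 10 listed genes was 307000 to 350000 in controls, 284000 to 314000 in SHS4m mice and 243000 to 378000 in recovery mice. Kupffer cell markers summed to 18000 to 22400, 14600 to 18500 and 15800 to 22100 in the same order. The adipocyte list summed to 749 to 1070 in controls, 1630 to 2280 in SHS4m mice and 478 to 819 in recovery mice. Of its 5 genes 3 were read, and Lep was at the floor on 12 of 12 arrays and Adipoq between 5 and 5.64, so the sum was mostly that of Fabp4. Muscle markers summed to 279 to 443 over all arrays. Of 14 circadian clock genes, each exposed group had 4 called against controls (3 higher, 1 lower), beside 7.47% of all genes at the end of exposure and 2.52% after recovery, and limma called 0 between recovery and SHS4m mice (2 had an unadjusted p under 0.05), beside 3.68% of all genes. The called genes included Tef (1.05 at the end of exposure, 1.23 after recovery) and Per2 (1.32 and 1.30). Of 10 genes of the feeding state, 2 differed from controls by the adjusted p at the end of exposure (median of the list 0.19) and 1 after recovery (median -0.07), and 4 (2 higher, 2 lower) between the exposed groups, with a median of -0.45. Igfbp1, the insulin-repressed gene with the largest difference of this list, differed by 3.48 in SHS4m mice against controls (adjusted p = 0.016) and by -0.90 in recovery mice (adjusted p = 0.673). The labels give no time of day or feeding state at death, and their part in the differences below was not tested.

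At the end of exposure, 6 of the 38 member genes differed between SHS4m mice and controls, each by less than 1.5-fold. Crot, Acaa1b, Eci1 and Acat1 were lower and Acads and Acox2 were higher. The 2 higher members compare with 3.73% of all 18193 genes called higher, and the 4 lower members with 3.74% called lower. Most members are bright on these arrays (34 of 38 had a mean log2 signal of 10 or more), and bright genes were called more often. Of the 34 bright members 17.6% were called, beside 18.5% of 3933 bright genes in all, so the share of members called was near the background. The median difference of the 38 members was -0.03, beside -0.01 over all genes. The interval lay within 1.5-fold in either direction for 28 members (73.7%), as it did for 73.3% of the bright genes. The 4 SHS4m arrays did not overlap with the 4 controls for 9 of 34 bright members, beside 1329 of 3933 bright genes. By the study's threshold of an unadjusted p under 0.05 and a 2-fold change, limma gave 0 members, beside 2.81% of all genes. An unadjusted p under 0.05 by limma was found for 11 of 38 members, beside 4087 of 18193 genes. Of the 34 bright members 10 had such a p, beside 1664 of the 3933 bright genes. With 3 changes of scale the adjusted calls were lost while the differences kept their direction: 0 members were called by limma with values below each array's 25th percentile raised to it, with log2(value + 32) or with each array centred on its median, where 10, 10 and 8 members had an unadjusted p under 0.05. How many of all genes had such a p in these settings was not counted. Over these settings the difference of Eci1 ran from -0.38 to -0.31. That of Acox2 ran from 0.31 to 0.39 and that of Acat1 from -0.30 to -0.22.

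In recovery mice, 2 of 38 members differed from controls, Acadl higher and Acox2 lower, beside 1.37% of all genes called higher and 1.14% called lower. Among bright members the share was 5.88%, beside 7.14% of bright genes. The median member difference was 0.01, beside 0.00 over all genes, and 29 intervals (76.3%) lay within 1.5-fold. Recovery and control arrays did not overlap for 7 of 34 bright members, beside 854 of 3933 bright genes. The study's threshold was passed by 1 member, Pdk4, beside 1.21% of all genes. An unadjusted p under 0.05 by limma was found for 13 of 38 members, beside 2927 of 18193 genes. Of the 34 bright members 12 had such a p, beside 1334 of the 3933 bright genes. Between recovery and SHS4m mice, 4 of 38 members differed, with Bdh1, Acat1 and Eci1 higher and Acox2 lower after recovery. The background was 2.01% of all genes higher and 1.68% lower, and 11.8% of bright members were called beside 8.7% of bright genes. Recovery and SHS4m arrays did not overlap for 7 of 34 bright members, beside 888 of 3933 bright genes. The median member difference was 0.11, beside 0.00 over all genes, with 25 of 38 members above 0. Without recovery replicate 72, whose actin ratio was high, that median was 0.05. With the same 3 changes of scale, limma called 0 members in recovery mice against controls (11, 11 and 15 had an unadjusted p under 0.05), and between recovery and SHS4m mice it called Acox2 and no other member. Here too the study's threshold was passed by Pdk4 and no other member, beside 1.93% of all genes.

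**Figure D1:**
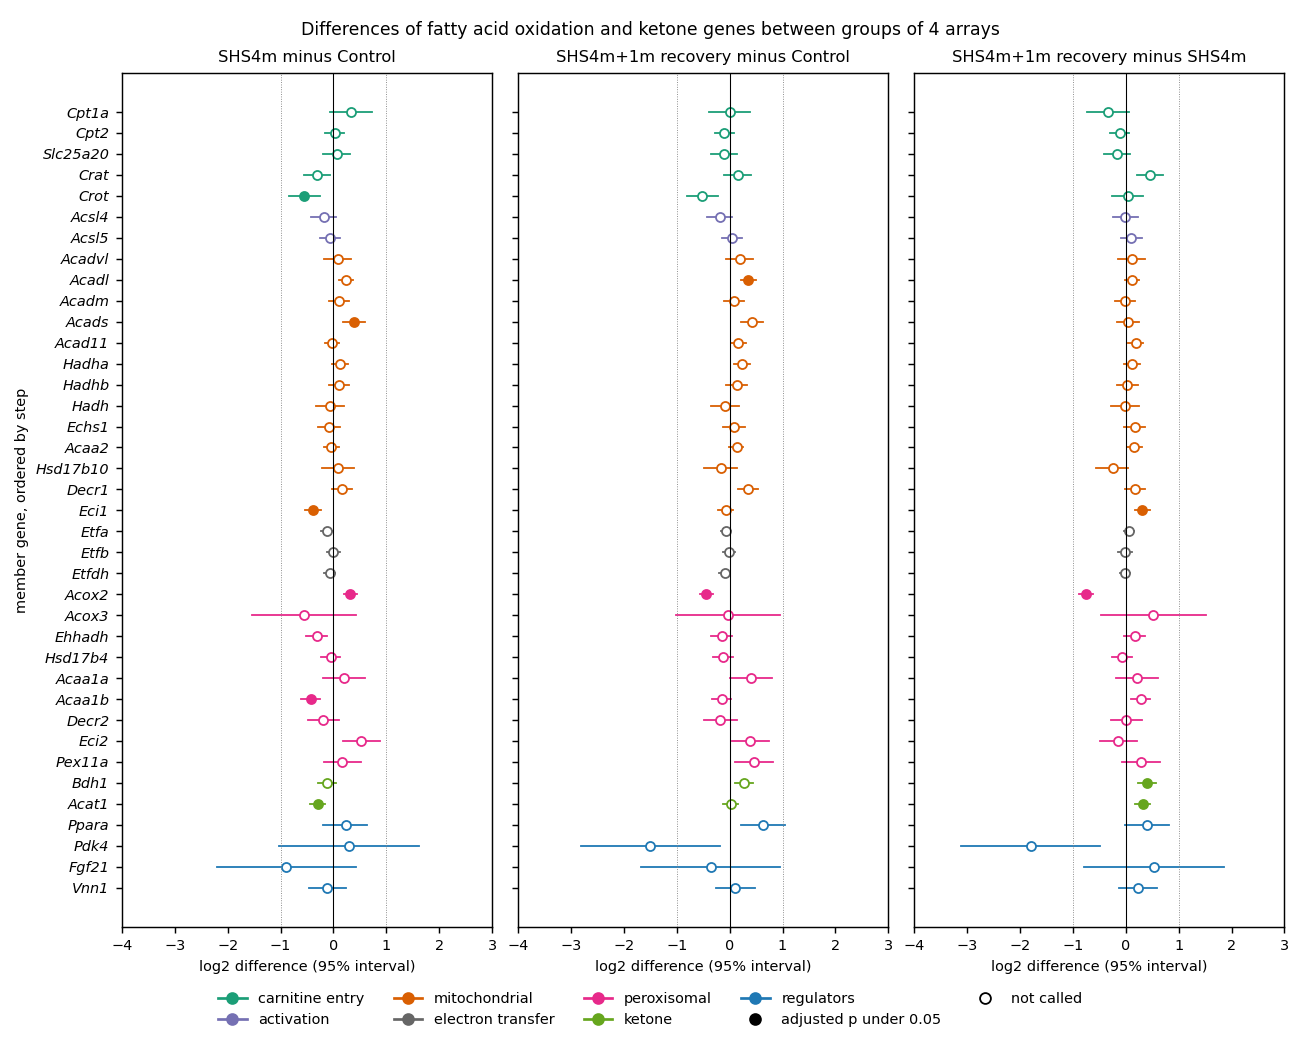
Log2 differences (x axis, points with 95% intervals) of the 38 member genes (y axis, grouped and coloured by step) in the 3 comparisons, with filled points where the adjusted p was under 0.05 and dotted lines at a 2-fold change. Most points lie close to 0, Acox2 lies above 0 in SHS4m mice and below 0 in recovery mice, and Pdk4 and Fgf21 have the widest intervals beside Acox3.

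Fatty acids are first activated. Acsl5 (1428082_at), which makes acyl-CoA at the outer mitochondrial membrane and the endoplasmic reticulum, differed by -0.06 (95% interval -0.25 to 0.13) in SHS4m mice and by 0.04 (95% interval -0.15 to 0.23) in recovery mice against controls. Acsl4 (1433531_at), which prefers arachidonic acid, had differences of -0.18 (95% interval -0.42 to 0.05) and -0.19 (95% interval -0.43 to 0.04). Its other probe sets (1418911_s_at and 1451828_a_at) differed by -0.45 and -0.37 in SHS4m mice and by -0.42 and -0.28 in recovery mice. None of these was called, with adjusted p values from 0.431 to 1 for the brightest ones.

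The step named carnitine entry was read through 5 genes. Cpt1a, Cpt2 and Slc25a20 bring fatty acids into mitochondria, and Crot and Crat are further carnitine acyltransferases. Cpt1a, the rate-limiting carnitine palmitoyltransferase of the liver, measured (probe set 1460409_at) 13.44, 13.64, 12.86 and 12.90 in controls, 13.69, 13.50, 13.47 and 13.52 in SHS4m mice and 13.45, 13.11, 13.02 and 13.26 in recovery mice. The 4 SHS4m arrays lay close together, while the controls fell apart, with replicates 1 and 2 at or near the SHS4m values and replicates 3 and 4 far below them. The difference was 0.34 (95% interval -0.06 to 0.73, adjusted p = 0.375) at the end of exposure and 0.00 (95% interval -0.39 to 0.39, adjusted p = 1) after recovery, and neither passed the test. The other Cpt1a probe sets differed by 0.39 and 0.41 at the end of exposure and by 0.26 and 0.38 after recovery.

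Cpt2, which re-forms acyl-CoA on the inner membrane, and Slc25a20, the carnitine-acylcarnitine carrier between them, moved little. Cpt2 (1416772_at) measured 12.08, 12.02, 11.94 and 12.14 in controls, 12.05, 12.04, 12.09 and 12.09 in SHS4m mice and 11.87, 11.90, 12.21 and 11.79 in recovery mice, and the groups overlapped. Its differences from controls were 0.02 (95% interval -0.16 to 0.20, adjusted p = 1) and -0.10 (95% interval -0.28 to 0.08, adjusted p = 0.675), and those of its other probe set (1447820_x_at) 0.01 and 0.26 (95% interval -0.23 to 0.76). Slc25a20 (1423108_at) measured 14.33, 14.35, 14.10 and 14.13 in controls, 14.31, 14.33, 14.06 and 14.46 in SHS4m mice and 14.12, 14.07, 14.37 and 13.95 in recovery mice, again with overlapping groups, and differed by 0.06 (95% interval -0.19 to 0.31) and -0.10 (95% interval -0.35 to 0.14). For the brightest probe set of both genes the intervals exclude a 1.5-fold change in either direction.

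Crot, the carnitine octanoyltransferase that exports chain-shortened acyl groups from peroxisomes, was the carnitine enzyme with the clearest change. Its signal (1450966_at) was 14.76, 14.88, 14.69 and 14.84 in controls, 13.99, 14.18, 14.59 and 14.20 in SHS4m mice and 14.17, 14.35, 14.52 and 14.07 in recovery mice. Every control array lay above every array of both exposed groups. It fell by 31.8% in SHS4m mice, a log2 difference of -0.55 (95% interval -0.85 to -0.26, adjusted p = 0.0398). The difference of recovery mice, -0.52 (95% interval -0.81 to -0.22, adjusted p = 0.087), was as large but did not pass the test, and recovery and SHS4m mice differed by 0.04 (95% interval -0.26 to 0.33). The call at the end of exposure did not hold once any of control replicates 1 to 4, SHS4m replicates 66, 67 or 69 or recovery replicates 70 or 71 was left out (adjusted p from 0.0543 to 0.0986). Crot also has a probe set near the floor (1440474_at), at 5 on 8 of 12 arrays, that gives no reading.

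Crat (1417008_at), carnitine acetyltransferase, had differences of -0.31 (95% interval -0.56 to -0.06, adjusted p = 0.164) in SHS4m mice and 0.46 (95% interval 0.21 to 0.71, adjusted p = 0.0696) between recovery and SHS4m mice. Its 4 recovery arrays (9.04, 9.28, 9.48 and 9.04) lay above the 4 SHS4m arrays (8.72, 8.68, 8.89 and 8.72) without a call. The shared probe set of Cpt1b differed by 0.56 in SHS4m mice (adjusted p = 0.195) and by 0.07 in recovery mice.

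Because members that moved are compared with each other here, the 250 bases before the annotated start are shown for Crot, Acaa1b and Eci1, which were lower at the end of exposure, and for Acox2 and Acads, which were higher. They are RefSeq sequences of GRCm38.p6, read 5' to 3' on the strand of the gene, with CCAAT in either direction (CCAAT or ATTGG) in capitals. Crot lies at chr5:8966033-8997146 on the minus strand and its sequence at chr5:8997147-8997396. Acaa1b lies at chr9:119148043-119157093 on the minus strand (sequence chr9:119157094-119157343), Eci1 at chr17:24426683-24439316 on the plus strand (sequence chr17:24426433-24426682), Acox2 at chr14:8225511-8259019 on the minus strand (sequence chr14:8259020-8259269, 1 of 2 listed starts) and Acads at chr5:115110299-115119346 on the minus strand (sequence chr5:115119347-115119596).
Crot: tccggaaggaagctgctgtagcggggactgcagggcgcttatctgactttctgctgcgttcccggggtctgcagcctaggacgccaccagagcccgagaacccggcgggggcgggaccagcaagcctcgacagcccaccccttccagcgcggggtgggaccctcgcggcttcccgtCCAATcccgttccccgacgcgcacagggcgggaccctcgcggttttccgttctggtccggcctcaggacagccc
Acaa1b: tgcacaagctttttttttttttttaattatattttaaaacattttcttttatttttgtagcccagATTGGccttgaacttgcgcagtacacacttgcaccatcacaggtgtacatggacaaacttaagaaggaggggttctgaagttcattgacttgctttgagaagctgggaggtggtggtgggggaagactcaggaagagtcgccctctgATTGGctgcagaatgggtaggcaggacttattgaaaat
Eci1: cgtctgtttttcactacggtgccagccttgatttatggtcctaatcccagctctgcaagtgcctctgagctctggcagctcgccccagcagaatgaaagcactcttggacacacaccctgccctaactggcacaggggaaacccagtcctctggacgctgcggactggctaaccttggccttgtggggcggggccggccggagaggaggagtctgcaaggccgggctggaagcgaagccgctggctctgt
Acox2: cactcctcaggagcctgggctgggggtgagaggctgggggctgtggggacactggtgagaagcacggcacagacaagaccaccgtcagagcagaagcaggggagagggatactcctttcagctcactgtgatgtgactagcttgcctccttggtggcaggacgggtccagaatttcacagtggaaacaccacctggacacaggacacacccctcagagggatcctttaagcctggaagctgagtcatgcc
Acads: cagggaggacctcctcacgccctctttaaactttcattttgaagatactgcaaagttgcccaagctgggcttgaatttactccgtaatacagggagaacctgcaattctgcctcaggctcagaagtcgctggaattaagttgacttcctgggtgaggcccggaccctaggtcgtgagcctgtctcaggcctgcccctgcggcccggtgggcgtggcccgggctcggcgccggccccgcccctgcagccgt
The Crot sequence holds 1 CCAAT and that of Acaa1b holds 2, both as ATTGG, while those of Eci1, Acox2 and Acads shown here hold none. The other listed start of Acox2, which is not shown, does have a CCAAT in its sequence. The 33 of 40 members with an entry had 36 listed sequences, of which 16 held a CCAAT (in 16 members). Of all 32851 sequences of this length 33.8% held it. The direct repeat of AGGTCA with 1 base between its copies is the form bound by PPARalpha with its partner RXR. Searched on both strands, it was in 0 of the 36 member sequences and in 0.0335% of all sequences. The single AGGTCA was in 4 of the 36 (Acadm, Acadvl, Cpt1a and Echs1) and in 14% of all. These matches describe these 250 bases and say nothing of binding.

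In the mitochondrial cycle, 13 genes were read. At the end of exposure Acads was higher and Eci1 lower, after recovery Acadl was higher than in controls, and Eci1 was higher than at the end of exposure. Against controls, the median difference of the 13 genes was 0.08 at the end of exposure and 0.14 after recovery, and 12 of 13 intervals lay within 1.5-fold in each of these comparisons.

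The acyl-CoA dehydrogenases take the chain lengths in turn, from very long (Acadvl) through long (Acadl) and medium (Acadm) to short (Acads). Acadvl (1424184_at) measured 13.49, 13.56, 13.39 and 13.40 in controls, 13.56, 13.63, 13.49 and 13.51 in SHS4m mice and 13.52, 13.71, 13.99 and 13.39 in recovery mice, with recovery replicate 72 highest of the 12. It differed by 0.08 (95% interval -0.17 to 0.33, adjusted p = 0.802) and 0.19 (95% interval -0.06 to 0.44, adjusted p = 0.536) from controls. Acadm (1415984_at) measured 14.09, 14.23, 13.85 and 14.16 in controls, 14.28, 14.20, 14.25 and 14.05 in SHS4m mice and 14.20, 14.21, 14.24 and 14.04 in recovery mice, with overlapping groups, and differed by 0.11 (95% interval -0.08 to 0.30) and 0.09 (95% interval -0.10 to 0.28).

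Acadl (1448987_at) measured 13.03, 13.13, 12.89 and 13.00 in controls, 13.14, 13.29, 13.33 and 13.22 in SHS4m mice and 13.37, 13.47, 13.32 and 13.29 in recovery mice. The 4 SHS4m and the 4 recovery arrays all lay above the 4 controls. In recovery mice it rose by 27.6%, a log2 difference of 0.35 (95% interval 0.21 to 0.49, adjusted p = 0.0236), and in SHS4m mice the difference was 0.24 (95% interval 0.10 to 0.37, adjusted p = 0.059). The call after recovery was lost without control replicates 1, 3 or 4 or recovery replicate 71 (adjusted p from 0.0551 to 0.0623), and the difference at the end of exposure passed without control replicate 2 (adjusted p = 0.0404). Between the exposed groups it differed by 0.12 (95% interval -0.02 to 0.25), with no call. The call after recovery was also lost with a floor of 16 (adjusted p = 0.0551) and with only the 8 arrays compared (adjusted p = 0.075). The other Acadl probe set (1448988_at) was dim and differed from controls by 0.16 in SHS4m and 0.14 in recovery mice, without a call. With the mean of both probe sets Acadl was not called in recovery mice (adjusted p = 0.635).

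Acads (1460216_at) measured 11.65, 11.88, 11.62 and 11.76 in controls, 12.03, 12.35, 11.93 and 12.15 in SHS4m mice and 12.18, 12.18, 12.25 and 12.02 in recovery mice. It too was above the controls on all 8 exposed arrays. It rose by 30.9% in SHS4m mice, by 0.39 (95% interval 0.18 to 0.60, adjusted p = 0.0433) on the log2 scale, while the difference in recovery mice was 0.43 (95% interval 0.22 to 0.64, adjusted p = 0.0514). The call at the end of exposure was lost without control replicates 1, 3 or 4, SHS4m replicates 66, 67 or 69 or recovery replicates 70, 71 or 72 (adjusted p from 0.0535 to 0.114). Without SHS4m replicates 67 or 68 the difference in recovery mice passed (adjusted p = 0.0319 and 0.0457). Its difference between recovery and SHS4m mice was 0.04 (95% interval -0.17 to 0.25).

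Acad11, an acyl-CoA dehydrogenase that also acts on hydroxylated fatty acids, gave readings that depended on the probe set. The brightest one (1433545_s_at) differed by 0.16 (95% interval 0.03 to 0.30, adjusted p = 0.253) in recovery mice. The other (1454647_at) measured 12.73, 12.79, 12.52 and 12.74 in controls, 12.88, 12.79, 12.96 and 13.02 in SHS4m mice and 13.34, 13.35, 13.15 and 13.48 in recovery mice, with the 4 recovery arrays above the other 8. It was 1.55-fold higher in recovery mice than in controls, a difference of 0.63 (95% interval 0.45 to 0.82, adjusted p = 0.00868) that passed in every alternative analysis tried. Between recovery and SHS4m mice it differed by 0.42 (SE 0.0835, adjusted p = 0.0342), and that call ended once control replicate 1 or 4, any SHS4m array or recovery replicate 70, 71 or 73 was left out (adjusted p from 0.0505 to 0.0886). With the mean of both probe sets Acad11 was called in recovery mice against controls (adjusted p = 0.0132).

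The hydratase, dehydrogenase and thiolase steps showed no call in their brightest probe sets. Hadha (1452173_at), the alpha subunit of the trifunctional protein that handles long chains, measured 12.25, 12.44, 12.10 and 12.28 in controls, 12.46, 12.35, 12.35 and 12.41 in SHS4m mice and 12.46, 12.64, 12.50 and 12.43 in recovery mice. All recovery values but that of replicate 73 lay above the highest control, and the differences were 0.12 (95% interval -0.03 to 0.28, adjusted p = 0.425) and 0.24 (95% interval 0.08 to 0.39, adjusted p = 0.14). Hadhb (1437172_x_at), its beta subunit, measured 13.84, 13.88, 13.56 and 13.65 in controls, 13.72, 13.80, 13.87 and 13.94 in SHS4m mice and 13.83, 13.75, 14.05 and 13.84 in recovery mice, with overlapping groups. It differed by 0.10 (95% interval -0.09 to 0.30) and 0.14 (95% interval -0.06 to 0.33), and its other bright probe set (1426522_at) by 0.10 and 0.13. For chains of short and medium length, Hadh (1455972_x_at), Echs1 (1452341_at) and Acaa2 (1428146_s_at) differed from controls by -0.07, -0.08 and -0.04 in SHS4m mice and by -0.09, 0.08 and 0.13 in recovery mice. The probe sets of Hadh differed in sign, and 1460184_at, whose SHS4m arrays (13.65, 13.55, 13.47 and 13.48) lay above the controls (13.40, 13.37, 13.23 and 13.31), gave 0.21 (95% interval 0.06 to 0.37, adjusted p = 0.125) and 0.17 (95% interval 0.02 to 0.33, adjusted p = 0.302). A dimmer probe set of Acaa2 (1428145_at), the 3-ketoacyl-CoA thiolase, was called between recovery and SHS4m mice at 0.25 (SE 0.0501, adjusted p = 0.0346). That call was lost without control replicates 1 or 4, SHS4m replicates 66 to 69 or recovery replicates 70 to 72 (adjusted p from 0.0526 to 0.0901). Another Acaa2 probe set (1455061_a_at) differed by -0.03 between recovery and SHS4m mice. Against controls it differed by -0.16 in SHS4m and by -0.19 in recovery mice, and it was not called. Hsd17b10 (1448286_at), a dehydrogenase of branched-chain and short acyl groups, had differences of 0.08 (95% interval -0.22 to 0.39) and -0.17 (95% interval -0.48 to 0.13). Its other probe set (1438391_x_at) differed by 0.28 and -0.18, and by -0.46 (95% interval -0.90 to -0.02, adjusted p = 0.326) between recovery and SHS4m mice.

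Unsaturated fatty acids need auxiliary enzymes, and here Eci1, the enoyl-CoA isomerase of mitochondria, stood out. Its signal (1418321_at) was 13.84, 13.68, 13.55 and 13.65 in controls, 13.34, 13.29, 13.33 and 13.23 in SHS4m mice and 13.70, 13.66, 13.53 and 13.54 in recovery mice. The 4 SHS4m arrays lay below the other 8. It fell by 23.4% at the end of exposure, a difference of -0.38 (95% interval -0.53 to -0.24, adjusted p = 0.00873), which passed when any single array was left out. After recovery the difference from controls was -0.07 (95% interval -0.22 to 0.07, adjusted p = 0.682), and recovery mice were higher than SHS4m mice by 0.31 (95% interval 0.17 to 0.45, adjusted p = 0.0368). The call between the exposed groups was lost without control replicates 2 or 4, any of SHS4m replicates 66 to 69 or any of recovery replicates 70 to 73 (adjusted p from 0.0538 to 0.0954).

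Decr1, the 2,4-dienoyl-CoA reductase of mitochondria, was split between its probe sets. The brighter one (1419367_at) measured 13.21, 13.23, 12.92 and 13.14 in controls, 13.30, 13.40, 13.26 and 13.21 in SHS4m mice and 13.52, 13.52, 13.57 and 13.28 in recovery mice. It differed by 0.17 (95% interval -0.02 to 0.35, adjusted p = 0.359) and 0.35 (95% interval 0.16 to 0.54, adjusted p = 0.0739) from controls, and the call in recovery mice was made without recovery replicate 73 (adjusted p = 0.0433). The dimmer one (1449443_at) measured 10.82, 10.88, 10.58 and 10.71 in controls, 10.42, 10.39, 10.44 and 10.30 in SHS4m mice and 10.82, 10.58, 10.76 and 10.79 in recovery mice, with the SHS4m arrays below the other 8. There the difference was -0.36 (95% interval -0.53 to -0.20, adjusted p = 0.0205) at the end of exposure and 0.35 (95% interval 0.19 to 0.51, adjusted p = 0.0391) between recovery and SHS4m mice. The former was lost without control replicate 1 or SHS4m replicates 67 or 69 (adjusted p from 0.0522 to 0.0558), and the latter without control replicates 1 or 4, SHS4m replicates 66 to 69 or recovery replicates 70, 72 or 73 (adjusted p from 0.0538 to 0.0971). The probe sets disagree in sign at the end of exposure, so no direction is given for Decr1.

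Electrons from the dehydrogenases pass to the respiratory chain through Etfa, Etfb and Etfdh. Over these 3 genes the median standard error was 0.0467, beside 0.0917 over all members, and the differences lay between -0.13 and 0.06 in the 3 comparisons. Etfa (1423972_at) measured 13.41, 13.44, 13.38 and 13.40 in SHS4m mice, below the controls (13.60, 13.57, 13.47 and 13.50), a difference of -0.13 (95% interval -0.23 to -0.03, adjusted p = 0.148). It was not called, and it was called after quantile normalization (adjusted p = 0.0266). Etfb differed by 0.00 (95% interval -0.12 to 0.12) and -0.01 (95% interval -0.13 to 0.11) and Etfdh by -0.07 (95% interval -0.18 to 0.03) and -0.09 (95% interval -0.20 to 0.01) from controls.

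**Figure D2:**
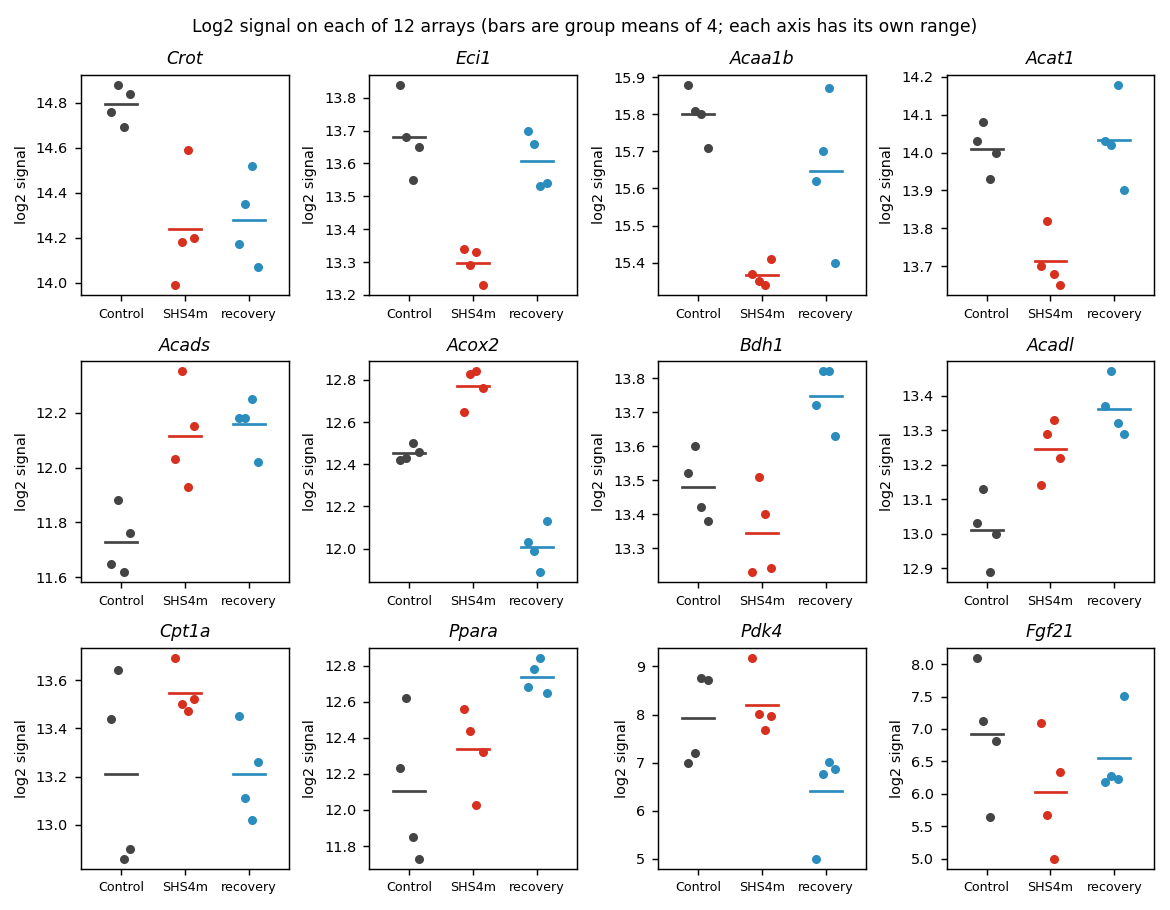
Log2 signal (y axis, with a range of its own in each panel) on each array for 12 member genes in controls, SHS4m mice and recovery mice (x axis, 4 arrays each), where points are arrays and bars are group means. The SHS4m points of Eci1, Acaa1b and Acat1 lie below all control points, Acox2 is separate in all 3 groups, and the controls of Cpt1a and Ppara lie far apart.

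In peroxisomes, 9 genes were read, of which Acox2 rose and Acaa1b fell at the end of exposure, and Acox2 fell below controls after recovery. Acox2, the branched-chain acyl-CoA oxidase, measured (1420673_a_at) 12.42, 12.43, 12.50 and 12.46 in controls, 12.65, 12.83, 12.84 and 12.76 in SHS4m mice and 12.03, 11.99, 11.89 and 12.13 in recovery mice. No 2 groups overlapped, and the controls lay between the exposed groups with a spread of 0.0377 (SD, n = 4). It was 1.24-fold higher in SHS4m mice than in controls (0.32 (95% interval 0.19 to 0.44, adjusted p = 0.0122)). In recovery mice it fell by 26.5% below controls, a difference of -0.45 (95% interval -0.57 to -0.32, adjusted p = 0.00763). The direct difference between recovery and SHS4m mice was -0.76 (95% interval -0.89 to -0.63, adjusted p = 0.000689), so that it fell by 41%, and this was called in all 22 alternative analyses (adjusted p up to 0.013).

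Acaa1b, a peroxisomal 3-ketoacyl-CoA thiolase, measured (1424451_at) 15.88, 15.81, 15.80 and 15.71 in controls, 15.37, 15.35, 15.34 and 15.41 in SHS4m mice and 15.62, 15.70, 15.87 and 15.40 in recovery mice. The SHS4m arrays lay below every control, and recovery replicate 73 lay among them. It fell by 25.9% at the end of exposure, a difference of -0.43 (95% interval -0.62 to -0.25, adjusted p = 0.0171) that passed when any single array was left out. After quantile normalization it was -0.245 and was still called. In recovery mice the difference from controls was -0.15 (95% interval -0.34 to 0.03, adjusted p = 0.49), and that from SHS4m mice, 0.28 (95% interval 0.09 to 0.46, adjusted p = 0.137), was called without recovery replicate 73 (adjusted p = 0.0262).

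The near-identical gene Acaa1a shares 2 further probe sets with Acaa1b, and these cannot be assigned to either. The first (1416947_s_at) differed by -0.42 (SE 0.0799, adjusted p = 0.0161) and the other (1416946_a_at) by -0.48 (SE 0.0836, adjusted p = 0.0106) in SHS4m mice, both lower on all 4 arrays than on any control. Between recovery and SHS4m mice they were higher by 0.37 (SE 0.0799, adjusted p = 0.0467) and 0.51 (SE 0.0836, adjusted p = 0.0156). Leaving out any array but recovery replicate 73 ended the former call (adjusted p from 0.0562 to 0.114). The probe set that names Acaa1a alone (1456011_x_at) measured 11.69, 11.93, 11.17 and 11.50 in controls, 11.68, 11.97, 11.81 and 11.63 in SHS4m mice and 12.23, 11.64, 12.16 and 11.87 in recovery mice. The groups overlapped, and its differences, 0.20 (95% interval -0.20 to 0.59, adjusted p = 0.647) and 0.41 (95% interval 0.01 to 0.80, adjusted p = 0.361), had the opposite sign and were not called. Its dimmer probe set (1456737_x_at) differed by 0.30 and 0.25.

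Ehhadh, the bifunctional hydratase and dehydrogenase and a well-known PPARalpha target, measured (1448382_at) 13.64, 13.44, 13.42 and 13.84 in controls, 13.21, 13.44, 13.19 and 13.22 in SHS4m mice and 13.44, 13.43, 13.41 and 13.44 in recovery mice. SHS4m replicate 67 reached the lower controls, the other SHS4m arrays lay below all controls, and the recovery arrays lay close together (SD 0.014, n = 4). The differences were -0.32 (95% interval -0.52 to -0.12, adjusted p = 0.0777) and -0.15 (95% interval -0.35 to 0.05, adjusted p = 0.549), neither called. Hsd17b4 (1455777_x_at), the other bifunctional enzyme, differed by -0.05 (95% interval -0.24 to 0.13) and -0.13 (95% interval -0.31 to 0.06).

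Eci2, an enoyl-CoA isomerase, measured (1431012_a_at) 13.51, 13.56, 12.82 and 12.99 in controls, 13.80, 13.73, 13.78 and 13.71 in SHS4m mice and 13.62, 13.62, 13.74 and 13.45 in recovery mice. As for Cpt1a, control replicates 3 and 4 were far below control replicates 1 and 2, while the SHS4m arrays lay close together (SD 0.0438, n = 4) and above every control. The difference was 0.53 (95% interval 0.18 to 0.88, adjusted p = 0.0888) in SHS4m mice, which passed without control replicate 2 (adjusted p = 0.0439) and where dim probe sets were left out (adjusted p = 0.0485), and 0.39 (95% interval 0.04 to 0.74, adjusted p = 0.299) in recovery mice. Decr2 (1423495_at) differed by -0.19 (95% interval -0.49 to 0.11) and -0.18 (95% interval -0.48 to 0.13). Acox3 (1420684_at), a further branched-chain oxidase, was close to the floor, at 5 on control replicate 3 and SHS4m replicates 66 and 69, and its interval at the end of exposure ran from -1.54 to 0.43.

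Pex11a, which elongates and divides peroxisomes and responds to PPARalpha, measured (1449442_at) 12.13, 12.39, 11.91 and 12.11 in controls, 12.58, 12.20, 12.02 and 12.44 in SHS4m mice and 12.93, 12.61, 12.49 and 12.36 in recovery mice. The recovery arrays were the highest on average, with replicate 70 at the top, but replicate 73 lay below control replicate 2. Its differences from controls were 0.17 (95% interval -0.18 to 0.53, adjusted p = 0.659) and 0.46 (95% interval 0.10 to 0.82, adjusted p = 0.212), and those of its other probe set (1419365_at) were 0.39 (95% interval -0.01 to 0.78, adjusted p = 0.295) and 0.60 (95% interval 0.21 to 1, adjusted p = 0.138). None was called.

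Of the ketone step, Bdh1 and Acat1 were read, and both were higher in recovery mice than in SHS4m mice. Acat1, the mitochondrial acetoacetyl-CoA thiolase that joins and splits acetyl-CoA units, measured (1424183_at) 14.03, 14.08, 13.93 and 14.00 in controls, 13.70, 13.82, 13.68 and 13.65 in SHS4m mice and 14.03, 14.02, 14.18 and 13.90 in recovery mice. The SHS4m arrays lay below the other 8. It fell by 18.7% at the end of exposure, a difference of -0.30 (95% interval -0.44 to -0.16, adjusted p = 0.0228), lay at 0.02 (95% interval -0.12 to 0.16, adjusted p = 0.993) from controls after recovery, and differed by 0.32 (95% interval 0.18 to 0.46, adjusted p = 0.0288) between recovery and SHS4m mice.

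Another bright probe set of Acat1 (1451271_a_at) measured 14.08, 14.11, 13.88 and 13.96 in controls, 13.38, 13.67, 13.53 and 13.43 in SHS4m mice and 13.94, 13.87, 14.19 and 13.87 in recovery mice, again with the SHS4m arrays below the other 8. Its differences were -0.50 (95% interval -0.70 to -0.30, adjusted p = 0.0124) at the end of exposure and 0.46 (95% interval 0.26 to 0.66, adjusted p = 0.0297) between recovery and SHS4m mice. The least bright Acat1 probe set (1424182_at, control mean 11.51, on no array at the floor) differed by -0.14 (95% interval -0.39 to 0.11). Its SHS4m and control arrays overlapped, and it was not called. Leaving out control replicates 1, 2 or 4 or SHS4m replicates 66, 68 or 69 ended the call of the brightest probe set at the end of exposure (adjusted p from 0.0543 to 0.0618), while that of 1451271_a_at passed without any single array. For the comparison of recovery and SHS4m mice, the calls of both were lost without SHS4m replicates 66, 68 or 69 or recovery replicates 70, 71 or 72 (adjusted p from 0.0501 to 0.0793).

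Bdh1, which interconverts acetoacetate and 3-hydroxybutyrate, measured (1452257_at) 13.52, 13.60, 13.42 and 13.38 in controls, 13.23, 13.51, 13.40 and 13.24 in SHS4m mice and 13.72, 13.82, 13.82 and 13.63 in recovery mice. The recovery arrays lay above all others, and SHS4m and control arrays overlapped. Recovery mice were 1.32-fold higher than SHS4m mice (0.40 (95% interval 0.23 to 0.57, adjusted p = 0.0271)), and differed from controls by 0.27 (95% interval 0.10 to 0.44, adjusted p = 0.126). SHS4m mice differed from controls by -0.13 (95% interval -0.30 to 0.04, adjusted p = 0.43). The call was lost without SHS4m replicates 66, 68 or 69 or recovery replicates 70, 71 or 72 (adjusted p from 0.0535 to 0.0733). The dimmer probe set (1426959_at) differed by 0.34 between recovery and SHS4m mice (adjusted p = 0.127).

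**Figure D3:**
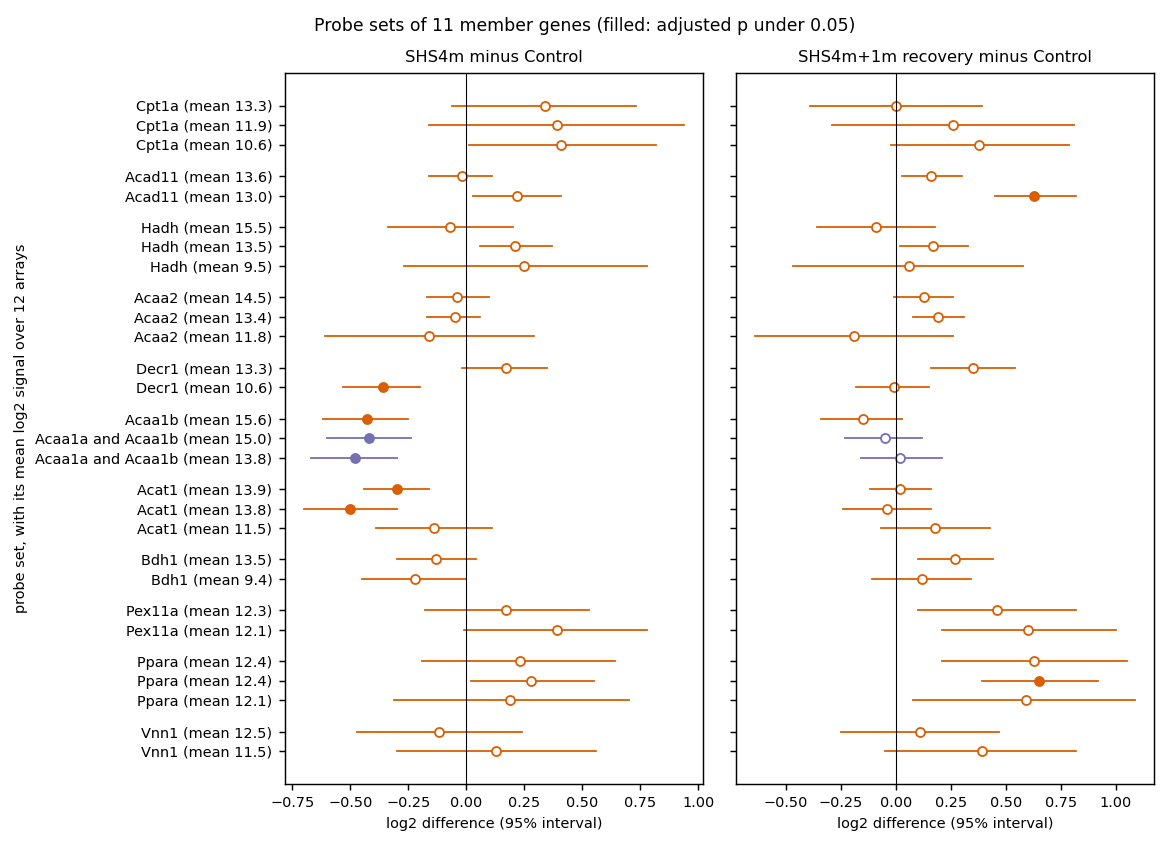
Log2 differences (x axis, points with 95% intervals, filled where the adjusted p was under 0.05) of every probe set of 11 member genes (y axis, with the mean log2 signal over 12 arrays) in SHS4m and in recovery mice against controls. Those of Ppara lie above 0 in both comparisons and those of Acaa1b below 0 in SHS4m mice, while those of Decr1 lie on opposite sides in SHS4m mice, and of Acad11 the dimmer one is called in recovery mice. Purple marks probe sets shared by Acaa1a and Acaa1b.

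The regulators were Ppara itself and Pdk4, Fgf21 and Vnn1, which rise with PPARalpha activity in fasting. The brightest Ppara probe set (1439675_at) measured 12.23, 12.62, 11.85 and 11.73 in controls, 12.56, 12.44, 12.03 and 12.32 in SHS4m mice and 12.68, 12.78, 12.84 and 12.65 in recovery mice. The recovery arrays lay above every control and every SHS4m array, while the controls spanned the SHS4m values, with replicates 3 and 4 lowest. Its differences from controls were 0.23 (95% interval -0.19 to 0.64, adjusted p = 0.617) and 0.63 (95% interval 0.21 to 1.05, adjusted p = 0.145), and without control replicate 2 the latter passed (adjusted p = 0.0383).

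The other Ppara probe sets went the same way. The one closest in signal (1457721_at) measured 12.02, 12.38, 11.89 and 11.89 in controls, 12.55, 12.36, 12.14 and 12.26 in SHS4m mice and 12.67, 12.65, 12.81 and 12.67 in recovery mice. It was 1.57-fold higher in recovery mice than in controls (0.65 (95% interval 0.39 to 0.92, adjusted p = 0.0262)), a call lost without control replicates 1, 3 or 4 or recovery replicates 71 to 73 (adjusted p from 0.0586 to 0.0753). In SHS4m mice its difference was 0.28 (95% interval 0.02 to 0.55, adjusted p = 0.242), called without control replicate 2 (adjusted p = 0.0434). The last one (1449051_at) differed by 0.19 (95% interval -0.31 to 0.70) and 0.59 (95% interval 0.08 to 1.09), without a call.

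Pdk4, the kinase that shuts pyruvate dehydrogenase in fasting and so spares glucose, measured (1417273_at) 7, 7.21, 8.75 and 8.71 in controls, 9.17, 8.01, 7.68 and 7.97 in SHS4m mice and 5, 6.76, 7.01 and 6.87 in recovery mice. Control replicates 3 and 4 were high and replicates 1 and 2 low, the reverse of Cpt1a, Eci2 and Ppara on the same arrays. The recovery arrays were the lowest on average, with replicate 70 at the floor and replicate 72 at the level of control replicate 1. The difference of recovery mice from controls was -1.51 (95% interval -2.82 to -0.19, adjusted p = 0.283), and that from SHS4m mice was -1.80 (95% interval -3.11 to -0.48, adjusted p = 0.175). These were the largest differences among the members in size, and neither was called at the adjusted p. In SHS4m mice the difference from controls was 0.29 (95% interval -1.03 to 1.61, adjusted p = 0.916).

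Fgf21, a fasting hormone secreted by the liver, was dim and variable. It measured (1422916_at) 8.09, 7.12, 5.64 and 6.82 in controls, 7.09, 5.67, 5 and 6.34 in SHS4m mice and 6.18, 6.28, 6.23 and 7.51 in recovery mice, with SHS4m replicate 68 at the floor, and the 3 groups overlapped. Its differences from controls were -0.89 (95% interval -2.21 to 0.43) and -0.36 (95% interval -1.68 to 0.96), and both intervals reach beyond a 2-fold fall. Vnn1 (1418486_at), a pantetheinase, measured 12.70, 12.79, 12.07 and 12.33 in controls, 12.52, 12.42, 12.19 and 12.29 in SHS4m mice and 12.76, 12.38, 12.71 and 12.49 in recovery mice, with overlapping groups and with control replicate 3 lowest. It differed by -0.12 (95% interval -0.47 to 0.24, adjusted p = 0.814) and 0.11 (95% interval -0.25 to 0.47, adjusted p = 0.861), and its other probe set (1447845_s_at) by 0.13 and 0.39.

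Some arrays lay to 1 side of their group for many members. Control replicate 3 was the lowest of the 4 controls for 28 of 38 members, against 30.8% of all bright genes, and its median deviation from the group mean was -0.13. Control replicate 2 was the highest for 22. In recovery mice, replicate 72 was the highest for 22 members and replicate 73 the lowest for 21, with median deviations of 0.10 and -0.10. Over all bright genes, replicate 73 was the lowest for 27.9%. SHS4m arrays differed less, with replicate 68 lowest for 17 (against 26.5% of all bright genes) and a median deviation of -0.03. How often an array was the highest was not counted over the bright genes. Members measured on 1 array share its RNA and scaling, so these counts are not independent. The spread of the control and recovery groups enters every interval above, and in recovery replicate 72 the actin ratio was the highest of the 12 arrays.

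**Figure D4:**
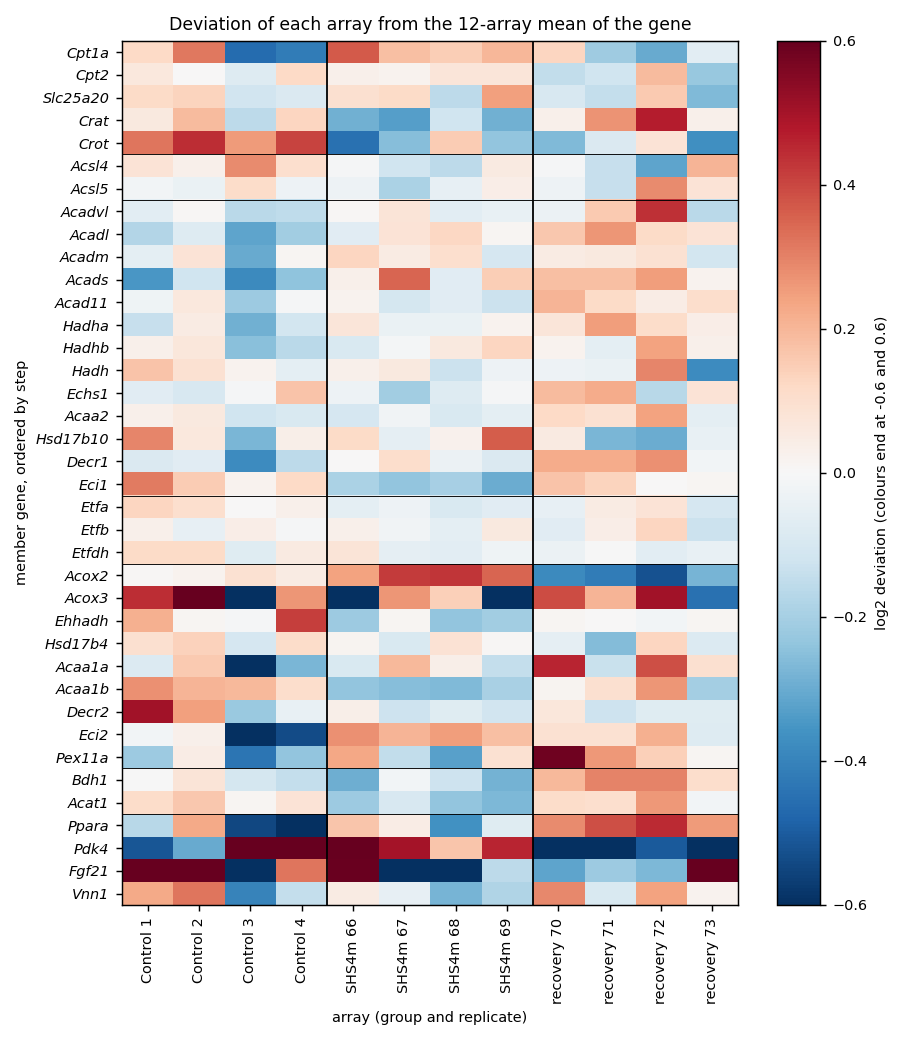
Deviation of each array from the 12-array mean of the gene (colour, log2, with colours ending at -0.6 and 0.6) for the 38 member genes (rows, grouped by step between thin lines) on 12 arrays (columns, with groups between thick lines). Control replicate 3 is blue for most genes, recovery replicate 72 is red for most, and the row of Acox2 is red in SHS4m mice and blue in recovery mice.

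Other genes of these pathways were taken from a list of 60, of which 53 were read. By their brightest probe sets, 15 of them at the end of exposure (28.3%, beside 7.47% of all genes and 18.5% of bright genes) had an adjusted p past the threshold against controls, with 10 above them and 5 below. The recovery group gave 7 (6 higher, 1 lower), which is 13.2% beside 2.52% of all and 7.14% of bright genes. The exposed groups differed from each other in 5 (3 higher, 2 lower), which is 9.43% beside 3.68% and 8.7%. The median differences were 0.07, 0.10 and 0.06. The other 7 listed genes were not analysed here. The list was chosen by role, but with earlier results of these data known. A share above the background may therefore be partly built in, and it was not tested.

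Among those that fell was Nudt7, a peroxisomal hydrolase of coenzyme A and its esters. Its signal (1431302_a_at) was 15.53, 15.41, 15.46 and 15.35 in controls, 14.03, 14.20, 13.95 and 14.51 in SHS4m mice and 15.06, 15.18, 15.32 and 14.97 in recovery mice. No 2 groups overlapped, with SHS4m lowest and recovery mice under the controls. It fell by 58.3% at the end of exposure, a difference of -1.26 (95% interval -1.53 to -1, adjusted p = 0.000676). It was higher by 0.96 (95% interval 0.69 to 1.23, adjusted p = 0.00498) in recovery than in SHS4m mice. Both were called in every alternative analysis tried. In recovery mice Nudt7 was not called against controls by this probe set. With the mean of its probe sets Nudt7 was called there, at -0.546 (adjusted p = 0.0484). Fabp1, the liver fatty acid binding protein (-0.48), Plin2, a lipid droplet coat protein (-0.89), Scp2, a peroxisomal thiolase and sterol carrier (-0.35), and Amacr, a racemase of branched acyl-CoA (-0.28), fell too, with adjusted p values from 0.0194 to 0.0375. Each of these 4 calls was lost when 1 or more single arrays were left out, with an adjusted p of at most 0.0932. After quantile normalization the difference of Fabp1 was -0.137 (adjusted p = 0.169).

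Among those that rose was Ppargc1a, the coactivator that works with PPARalpha in fasting. Its signal (1460336_at) was 9.02, 9.09, 8.68 and 8.24 in controls, 10.44, 10.66, 10.89 and 9.99 in SHS4m mice and 9.13, 8.81, 8.42 and 8.89 in recovery mice. The 4 SHS4m arrays lay above the other 8, and recovery mice overlapped with controls. It was 3.34-fold higher in SHS4m mice (1.74 (95% interval 1.19 to 2.29, adjusted p = 0.00422)) and differed by -1.68 (95% interval -2.23 to -1.13, adjusted p = 0.00886) between recovery and SHS4m mice. Igfbp1 of the feeding list differed by -4.38 between recovery and SHS4m mice (adjusted p = 0.00995). Ppargc1b, a related coactivator, was higher by 1.31 (95% interval 0.64 to 1.99, adjusted p = 0.0353) at the end of exposure, a call lost without 7 of the 12 arrays in turn (adjusted p up to 0.0938), and was at 0.92 (95% interval 0.24 to 1.60, adjusted p = 0.186) after recovery. Auh, an enoyl-CoA hydratase of leucine breakdown that also binds RNA, rose in both exposed groups, by 0.52 (95% interval 0.38 to 0.66, adjusted p = 0.00196) and 0.56 (95% interval 0.43 to 0.70, adjusted p = 0.00523), and passed when any single array was left out. With the mean of its probe sets Auh differed by 0.09 and 0.02 and was not called (adjusted p = 0.787 and 1). Pdk1 and Pdk2, relatives of Pdk4, rose by 0.78 (SE 0.127, adjusted p = 0.00807) and 0.74 (SE 0.0882, adjusted p = 0.00206) at the end of exposure. After recovery the differences of these kinases were 0.77 (SE 0.127, adjusted p = 0.0182) and 0.35 (SE 0.0882, adjusted p = 0.0819). Nudt19, another coenzyme A hydrolase of peroxisomes, rose in both exposed groups (0.55 and 0.59), as did Rxra, the partner of PPARalpha (0.38 and 0.24). With the mean of their probe sets Pdk1 differed by 0.452 at the end of exposure and Nudt19 by 0.378 after recovery, both still called. The calls of Pdk1, Nudt19 and Rxra in recovery mice were each lost without 2 or more single arrays (adjusted p up to 0.0837). Lpin1, a phosphatidate phosphatase and coactivator, was higher by 2.50 (95% interval 1.28 to 3.73, adjusted p = 0.0285) at the end of exposure and at 1.93 (95% interval 0.71 to 3.16, adjusted p = 0.126) after recovery. The call of Lpin1 was lost in 7 alternative analyses that left out 1 array (adjusted p up to 0.0804).

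After recovery, Mlycd, which degrades malonyl-CoA, the inhibitor of Cpt1a, was higher than in controls by 0.42 (95% interval 0.28 to 0.56, adjusted p = 0.0124), and Sirt3, a mitochondrial deacetylase, by 0.50 (95% interval 0.30 to 0.70, adjusted p = 0.027). Hacl1, a lyase of alpha-oxidation, was lower by -0.85 (95% interval -1.25 to -0.45, adjusted p = 0.0451). Between recovery and SHS4m mice, Oxct1, which uses ketone bodies and is scarce in hepatocytes, differed by 0.76, Ech1, a dienoyl-CoA isomerase, by 0.39 and Slc16a1, a carrier of ketone bodies and lactate, by -0.43 (adjusted p from 0.0311 to 0.047). Of these 6 genes, Mlycd passed when any single array was left out, and the others were lost without at least 1 (adjusted p up to 0.123). The call of Hacl1 was lost without each of the 12 arrays in turn. With the mean of its probe sets Oxct1 was not called (adjusted p = 0.551). Cyp4a14, a fatty acid omega-hydroxylase induced by PPARalpha, measured (1423257_at) 14.07, 14.07, 13.39 and 14.11 in controls, 14.87, 14.66, 14.54 and 14.21 in SHS4m mice and 14.31, 14.93, 14.64 and 14.10 in recovery mice, and its differences from controls, 0.66 (95% interval 0.15 to 1.17, adjusted p = 0.148) and 0.59 (95% interval 0.08 to 1.10, adjusted p = 0.28), were not called.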

How the data were processed

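Liver RNA of 12 mice was hybridised to Affymetrix mouse genome arrays. The authors summarised each probe set in Affymetrix Expression Console, and the deposited intensities are linear, scaled so that each array's mean without the highest and lowest 2% of values is 500. The sources used here name no summarisation algorithm or version. Log2 was taken after values below 32 were raised to 32. Groups came from the labels, and all 45037 probe sets other than the 64 array controls were fitted with limma 3.58.1 (lmFit, eBayes, R 4.3.3) in 1 model of 3 groups, without covariates. Tests were two-sided with Benjamini-Hochberg adjustment over all probe sets. The adjusted p of every call comes from this model, whose 95% intervals used 9.652 degrees of freedom. The procedure was tested on simulated data. Precision is limited by the number of arrays, 4 in each group, of 1 mouse each.

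A gene was read by its brightest probe set, by mean log2 signal over 12 arrays, among those that name it alone (34945 probe sets name 1 gene, 932 several and 9160 none). Every member called in a comparison was named, with any other probe set of a member that was called, and 18 members were described whatever their values. The other genes of the pathway were named if called, up to 8 by size in each direction of a comparison, or if chosen by role. The members and lists were chosen with earlier results of these data known. No table of differences made by the authors was used. Alternatives changed the floor, the scaling, the arrays in the fit, the filter on dim probe sets (mean log2 under 6), the variance model, the probe set and the call rule, or left out each array in turn. Sequences of 250 bases before gene starts are those of RefSeq on GRCm38.p6, matched by symbol for 33 of 40 members.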

Additional observations from a re-analysis of the deposited data

Results flagged for a closer look

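Within groups of 4 arrays, 5 of 114 member groups held an array far from the other 3, and chance gives about 1 in 20. Acsl5 was highest in control replicate 3, at 13.64 against 13.49 to 13.51. Decr1 was lowest in recovery replicate 73, at 13.28 against 13.52 to 13.57. Ehhadh was highest in SHS4m replicate 67, at 13.44 against 13.19 to 13.22. Pdk4 was lowest in recovery replicate 70, at 5, which is the floor, against 6.76 to 7.01. Fgf21 was highest in recovery replicate 73, at 7.51 against 6.18 to 6.28.

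By limma's test between the exposed groups, the effect at the end of exposure differed from that after recovery for 4 of 38 members. The background was 3.68% of all genes, and 11.8% of bright members were called beside 8.7% of bright genes. The difference between the exposed groups was 0.31 for Eci1, -0.76 for Acox2, 0.40 for Bdh1 and 0.32 for Acat1. The call of Acox2 held in all 22 alternative analyses. Those of Eci1, Bdh1 and Acat1 were lost in 15, 10 and 12 of the 22.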

How the results depend on the processing

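No paired analysis was possible because the groups share no replicate numbers. No called difference of a member changed sign. Of the 6 members called in SHS4m mice against controls, 0 remained past the threshold with the floor at each array's 25th percentile, log2(value + 32), centring of arrays on their median, or the study's threshold, and 3 to 6 were called with single arrays left out (3 without control replicates 1 or 4 or SHS4m replicates 66 or 69). In recovery mice against controls the 2 calls became 1 with a floor of 16, 0 with the 25th percentile, 0 with log2(value + 32), 0 with centring, 1 with only the 8 arrays compared and 1 by the study's threshold, and 1 to 4 with single arrays left out (1 without control replicates 1, 3 or 4 or recovery replicate 71, and 4 without SHS4m replicate 68). Between recovery and SHS4m mice the 4 calls became 2 with a floor of 16, 1 with the 25th percentile, 1 with log2(value + 32), 1 with centring, 2 with only the 8 arrays compared, 2 with dim probe sets left out and 1 by the study's threshold, and 1 to 4 with single arrays left out (1 without SHS4m replicates 66, 68 or 69 or recovery replicates 70, 71 or 72). The causes were not tested. For the other pathway genes the 15 calls in SHS4m mice became 9 with the 25th percentile or log2(value + 32) and 5 by the study's threshold (7 to 15 with single arrays left out, 8 without control replicate 3 and 7 without SHS4m replicate 67). The 7 calls in recovery mice became 2 with the 25th percentile or log2(value + 32) and 1 with only the 8 arrays compared or by the study's threshold (3 to 7 with single arrays left out, 3 without control replicates 3 or 4 or recovery replicate 71, and 4 without recovery replicate 73). The 5 between recovery and SHS4m mice became 2 with a floor of 16, the 25th percentile, log2(value + 32), centring or the study's threshold, 3 with only the 8 arrays compared and 8 with the mean of the probe sets (2 to 5 with single arrays left out, 2 without control replicate 1 or SHS4m replicate 66, and 3 without control replicate 4, SHS4m replicates 67 or 69 or recovery replicates 70, 71 or 72). With centring, which moved the median of all probe sets by 0.078 and 0.079 in the comparisons with controls, the median difference in SHS4m mice was 0.049 over all members, 0.099 for carnitine entry and 0.006 for electron transfer, and that of electron transfer in recovery mice was 0.006. With single arrays left out, the median of the regulators in recovery mice ran from -0.406 to 0.106, the lowest without control replicate 3 and the highest without control replicate 1, and that of all members between recovery and SHS4m mice from 0.052 to 0.122. With the mean of the probe sets, the medians between recovery and SHS4m mice were 0.037 for carnitine entry and 0.076 for the peroxisomal genes. Acox3 has no value where dim probe sets were left out. Signal near the floor limits Acox3, Fgf21 and Pdk4, whose changes can be understated. The probe set of Cpt1b was on no array at the floor, but it also names Chkb and Gm44502 and cannot be assigned to Cpt1b.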
